A study of Homo sapiens with 6 samples.

Results

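The genes that store, take up, release and sense iron were followed through RNA-seq of Molm13-Cas9 leukemia cells with and without targeting of COX4I1, a subunit of mitochondrial Complex IV. The 10 genes were chosen by symbol, for their known roles, from the 19845 gene symbols counted, with earlier results of these data known. They are FTH1 and FTL for storage, NCOA4 for ferritin turnover, PCBP1 for iron delivery, TFRC, STEAP3 and SLC11A2 for uptake, SLC40A1 for export, and ACO1 and IREB2 for sensing. The question was whether the mRNA of these genes differs between sgCOX4I1 and sgCtrl cells, and whether storage and uptake genes moved alike.

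Molm13 is an established human acute myeloid leukemia line with a rearranged MLL gene. All 6 cultures were Molm13 cells that stably express the Cas9 nuclease, carry the ipUSEPR lentiviral vector for a single guide RNA, and were kept under puromycin to retain transduced cells. Of these, 3 libraries came from cells with a control guide (sgCtrl #1 to #3) and 3 from cells with a guide against COX4I1 (sgCOX4I1 #1 to #3), each number being a different guide sequence. The cells are transduced pools of 1 cell line, and the time of harvest is not given in the sources used here. The spread between the 3 libraries of a group therefore includes differences between guides.

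Ferritin is a hollow shell of heavy (FTH1) and light (FTL) chains that holds iron in a non-reactive form, and NCOA4 carries it to the lysosome when the iron is needed. Iron enters most cells on transferrin bound to its receptor TFRC, is reduced in the endosome by STEAP3 and leaves the endosome through SLC11A2, while SLC40A1 (ferroportin) is the exporter. Cells adjust this balance mainly after transcription. When iron is scarce, the iron regulatory proteins ACO1 (IRP1) and IREB2 (IRP2) bind iron-responsive elements, short hairpins in the untranslated regions, which blocks translation of ferritin and stabilizes the TFRC mRNA. A measurement of mRNA level sees the stability of the TFRC mRNA only together with its transcription. It does not see the block on ferritin translation.

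These hairpins are shown because they stand at opposite ends of the mRNA in the ferritin chains and in TFRC, before the coding sequence in FTH1, FTL and the exporter SLC40A1 and after it in TFRC. Each line gives 29 bases of the mRNA in DNA letters, 5′ to 3′, read from GRCh38 at the GENCODE 44 position, with the 6-base loop CAGTGN in capitals.
FTH1, 5′ untranslated region, chr11:61967574-61967602, minus strand: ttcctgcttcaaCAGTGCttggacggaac
FTL, 5′ untranslated region, chr19:48965335-48965363, plus strand: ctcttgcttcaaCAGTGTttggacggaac
SLC40A1, 5′ untranslated region, chr2:189580661-189580689, minus strand: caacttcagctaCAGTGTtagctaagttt
TFRC, 3′ untranslated region, chr3:196050979-196051007, minus strand: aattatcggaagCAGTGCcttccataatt
TFRC, 3′ untranslated region, chr3:196050575-196050603, minus strand: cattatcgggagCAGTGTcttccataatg
TFRC, 3′ untranslated region, chr3:196050510-196050538, minus strand: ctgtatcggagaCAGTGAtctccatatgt
TFRC, 3′ untranslated region, chr3:196050463-196050491, minus strand: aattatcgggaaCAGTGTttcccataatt

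The hairpins were found by searching the transcript strand of the GENCODE canonical transcripts for a C, 5 bases, CAGTG with A, C or T, and 5 bases that pair with the first 5. Such a match stood in 11 of 19441 annotated 5′ untranslated regions (0.0566%) and in 98 of 19550 annotated 3′ untranslated regions (0.501%). FTH1, FTL and SLC40A1 each had 1 match in the 5′ region, and TFRC had 4 in the 3′ region. The canonical transcripts of SLC11A2, NCOA4, IREB2, ACO1, PCBP1 and STEAP3 had no match. Nor did that of EPAS1, which is listed below among mRNAs with an iron-responsive element. A match is a description of the letters, and no match says only that the pattern is not in that transcript.

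Total counts ranged from 17241014 to 30861943 per library. Levels are given in CPM, the count of a gene relative to the library total scaled by edgeR's TMM factors, and all fold changes compare sgCOX4I1 with sgCtrl. Of the 10 genes, 9 passed edgeR's expression filter, which kept 11861 genes in all. COX4I1 itself stood at 26.7%, 76.7% and 27.0% of the sgCtrl mean in sgCOX4I1 #1, #2 and #3, so sgCOX4I1 #2 had lost the least COX4I1 mRNA. The log2 fold change of COX4I1 was -1.21. Its adjusted p of 0.0512 in edgeR's quasi-likelihood test missed the threshold of 0.05, so COX4I1 was not called. The markers of myeloid leukemia cells were all detected (10 of 10 passed the filter), while 0 of 10 erythroid markers did, with the globins HBA1, HBA2, HBB and HBG1 and also GYPB and ALAS2 among those at 0 counts in every library.

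Among the chosen genes, the mRNA of ferritin heavy chain was the one that passed the test. Of the 9 genes tested, 1 (FTH1) was called higher and 0 lower at an adjusted p under 0.05 (quasi-likelihood test of edgeR, p-values adjusted after Benjamini and Hochberg over all genes). Over all genes tested, 2.08% were called, 1.06% as higher and 1.02% as lower. None of the 9 genes was called with a change of at least 2-fold, a mark reached by 0.202% of all genes. The median log2 fold change of the 9 genes was 0.23, against -0.0023 over all genes tested, with 7 above 0 and 2 below. In 5 of the 9 genes (FTH1, FTL, NCOA4, IREB2 and ACO1) the 3 sgCOX4I1 libraries all lay above the 3 sgCtrl libraries, where groups that did not overlap, in either direction, made up 21.6% of all genes.

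**Figure D1:**
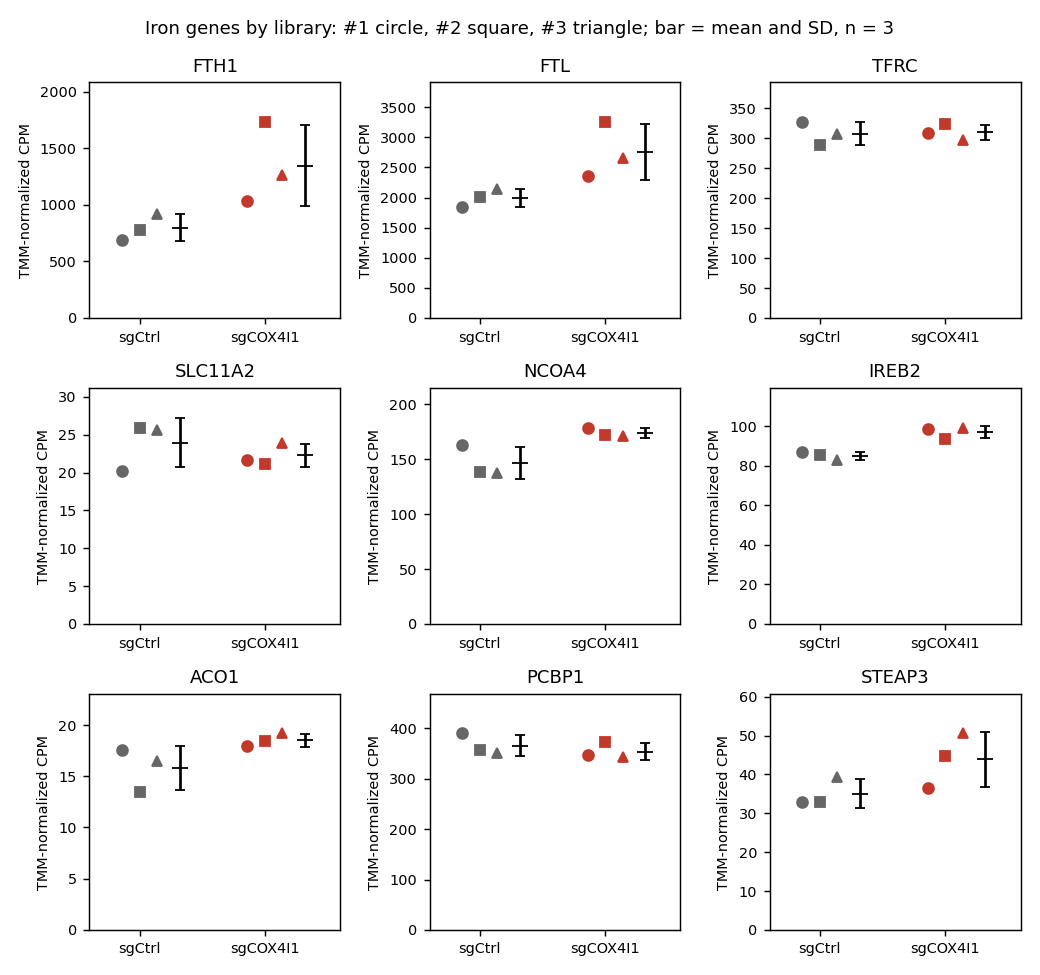
Level of each tested gene among those chosen, by library, in TMM-normalized CPM on axes that start at 0. Libraries of sgCtrl are gray and those of sgCOX4I1 red, with the mean and SD of 3 libraries beside the points. FTH1 and FTL are higher in all 3 sgCOX4I1 libraries, most of all in #2, whereas the TFRC points of both groups lie at the same height.

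FTH1 (chr11:61959718-61967634, minus strand) encodes the chain with ferroxidase activity, which oxidizes iron as it enters the shell. Its level was 689, 781 and 923 CPM in sgCtrl #1, #2 and #3. In sgCOX4I1 #1, #2 and #3 it was 1035, 1736 and 1266 CPM. The groups did not overlap, but the gap of 112 CPM between them was smaller than the range of 235 CPM within sgCtrl and of 701 CPM within sgCOX4I1. FTH1 rose on average from 798 ± 118 CPM in sgCtrl to 1346 ± 357 CPM in sgCOX4I1 (SD, n = 3), with a log2 fold change of 0.75 (SE 0.16, 95% interval 0.42 to 1.09) or 1.69-fold, with an adjusted p of 0.0277 in edgeR's quasi-likelihood test. The library with the highest FTH1, sgCOX4I1 #2, was the one with the most COX4I1 mRNA left. These counts do not measure the COX4I1 protein left with each guide. Without sgCOX4I1 #2 the log2 fold change of FTH1 was 0.53 and the adjusted p 0.119. Without sgCtrl #2 they were 0.74 and 0.220, so the call was lost in both cases. Those fits called few genes of any kind, 0.425% of all genes without sgCOX4I1 #2 and 0.2% without sgCtrl #2. In DESeq2 FTH1 had the same log2 fold change of 0.75 with an adjusted p of 0.0636.

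FTL (chr19:48965309-48966879, plus strand) encodes the chain that helps the iron core form. FTL was read at 1838, 2007 and 2139 CPM in sgCtrl #1, #2 and #3, against 2352, 3262 and 2653 CPM in sgCOX4I1 #1, #2 and #3. All 3 sgCOX4I1 libraries lay above all sgCtrl libraries, and the 6 libraries stood in the same order as for FTH1, from sgCtrl #1 at the bottom to sgCOX4I1 #2 at the top. The means were 1995 ± 151 and 2756 ± 464 CPM (SD, n = 3), a log2 fold change of 0.47 (SE 0.12, 95% interval 0.21 to 0.72) or 1.38-fold. The adjusted p of 0.0575 in edgeR's quasi-likelihood test missed the threshold. DESeq2 called FTL, with an adjusted p of 0.0012.

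The share of both chains in the library followed the same order. FTH1 and FTL took 0.250%, 0.280% and 0.305% of all counts in sgCtrl #1, #2 and #3, and 0.339%, 0.499% and 0.397% in sgCOX4I1 #1, #2 and #3. Across the 6 libraries the log2 CPM of FTH1 and FTL had a Pearson r of 0.998, the highest of any of the 11324 genes compared with FTH1. The next were PLEKHA3 (r = 0.995) and RPS6KA2 (r = 0.995), and 109 genes exceeded 0.95 over these 6 points, which share their groups and their depth.

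The ratio of heavy to light chain mRNA was also higher in the sgCOX4I1 libraries. There were 0.375, 0.389 and 0.432 FTH1 counts for each FTL count in sgCtrl #1, #2 and #3, and 0.440, 0.532 and 0.477 in sgCOX4I1 #1, #2 and #3. Every sgCOX4I1 library lay above the highest sgCtrl library, although sgCtrl #3 and sgCOX4I1 #1 nearly met. The mean ratio was 0.398 ± 0.0296 in sgCtrl and 0.483 ± 0.0464 in sgCOX4I1 (SD, n = 3), 1.21-fold apart, with a two-sided exact permutation p of 0.1, the smallest that 3 against 3 libraries allow.

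NCOA4 (chr10:46005088-46030623, minus strand), the receptor that delivers ferritin for degradation, showed a smaller difference of the same sign. It measured 163, 138 and 138 CPM in sgCtrl #1, #2 and #3, against 179, 172 and 171 CPM in sgCOX4I1 #1, #2 and #3. Here the sgCOX4I1 libraries stood close together and sgCtrl #1 stood nearest to them. The means of 146 ± 14.5 and 174 ± 4.25 CPM (SD, n = 3) gave a log2 fold change of 0.25 (95% interval 0.078 to 0.42), with an adjusted p of 0.128 in edgeR's quasi-likelihood test. Without sgCtrl #1 NCOA4 was called, at a log2 fold change of 0.33 and an adjusted p of 0.0235.

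PCBP1 (chr2:70087477-70089203, plus strand), a chaperone that hands iron to ferritin and also binds RNA, did not follow the ferritin chains. Its levels were 390, 357 and 351 CPM in sgCtrl #1, #2 and #3, against 346, 373 and 344 CPM in sgCOX4I1 #1, #2 and #3. The groups overlapped, and the log2 fold change was -0.047 (adjusted p 0.800 in edgeR's quasi-likelihood test). Its relative PCBP2 stood at 639 ± 14.2 CPM in sgCtrl and 578 ± 8.19 CPM in sgCOX4I1 (SD, n = 3), a log2 fold change of -0.14 with an adjusted p of 0.328.

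The mRNA of the transferrin receptor had nearly the same mean in both groups. TFRC (chr3:196012511-196082153, minus strand) was read at 328, 289 and 306 CPM in sgCtrl #1, #2 and #3, against 308, 323 and 298 CPM in sgCOX4I1 #1, #2 and #3. The libraries of the groups were interleaved, with the highest and the lowest both in sgCtrl. The means of 308 ± 19.3 and 310 ± 12.9 CPM (SD, n = 3) gave a log2 fold change of 0.01 with a 95% interval of -0.15 to 0.17 (adjusted p 0.968 in edgeR's quasi-likelihood test). A change of TFRC as large as that estimated for FTH1 lies outside this interval. Its direction is not defined, since it was below 0 without sgCtrl #2 (-0.033) and without sgCOX4I1 #2 (-0.022).

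Since both genes were counted in the same library, their ratio does not depend on the scaling between libraries. There were 2.10, 2.70 and 3.01 FTH1 counts for each TFRC count in sgCtrl #1, #2 and #3, and 3.36, 5.37 and 4.25 in sgCOX4I1 #1, #2 and #3. All 3 sgCOX4I1 ratios exceeded all sgCtrl ratios. The mean ratio of FTH1 to TFRC went from 2.61 ± 0.463 to 4.33 ± 1.01 (SD, n = 3). The mean log2 ratio differed by 0.72, or 1.65-fold, with a two-sided exact permutation p of 0.1, the smallest possible here. For FTL to TFRC the ratio went from 6.51 ± 0.781 to 8.88 ± 1.23 (SD, n = 3), also with an exact p of 0.1. Over the 3 ratios computed no smaller p was attainable, before or after adjustment.

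**Figure D2:**
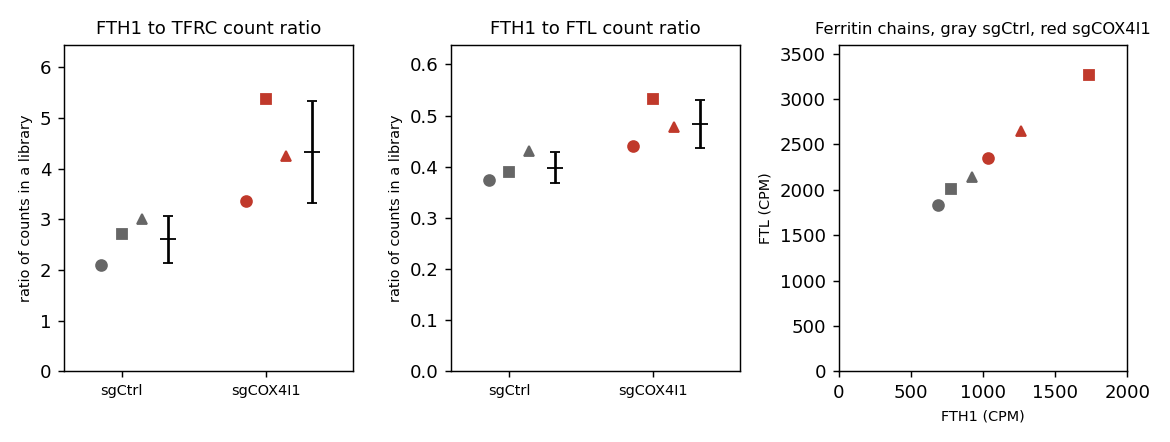
Ratio of FTH1 to TFRC counts (left) and of FTH1 to FTL counts (middle) in each library with the mean and SD of 3 libraries, and FTL against FTH1 in CPM (right), with #1 as a circle, #2 as a square and #3 as a triangle. Both ratios are higher in each sgCOX4I1 library (red) than in any sgCtrl library (gray), and the 6 libraries fall on nearly 1 line for the ferritin chains.

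STEAP3 (chr2:119223831-119265652, plus strand), the endosomal ferrireductase, was 32.9, 32.8 and 39.3 CPM in sgCtrl #1, #2 and #3, against 36.5, 44.6 and 50.5 CPM in sgCOX4I1 #1, #2 and #3. The groups overlapped, since sgCtrl #3 lay above sgCOX4I1 #1. The log2 fold change was 0.33 (SE 0.12, 95% interval 0.074 to 0.58) with an adjusted p of 0.170 in edgeR's quasi-likelihood test. Among the other 8 tested genes, STEAP3 followed FTH1 (r = 0.824) most closely after FTL over the 6 libraries.

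SLC11A2 (chr12:50979401-51028566, minus strand), the transporter DMT1, was 20.2, 26.0 and 25.7 CPM in sgCtrl #1, #2 and #3, against 21.7, 21.2 and 24.0 CPM in sgCOX4I1 #1, #2 and #3. The groups overlapped, with a log2 fold change of -0.10 (95% interval -0.35 to 0.14, adjusted p 0.70 in edgeR's quasi-likelihood test). SLC11A2 and TFRC ran opposite to each other over the 6 libraries (r = -0.864), a description of 6 points only. The genes that followed TFRC most closely were KARS (r = 0.995), TRMT1L (r = 0.987) and ERP44 (r = 0.987), none of them on an iron list.

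SLC40A1 (chr2:189560590-189583758, minus strand), the only known cellular iron exporter, had 0 counts in each of the 6 libraries. At these depths 0 counts allow a level of up to 0.0972 CPM in the deepest library and 0.174 CPM in the shallowest, from counting error only. The other genes of export and its control, HEPH, HEPHL1, CP, HAMP, HJV, TMPRSS6 and BMP6, had at most 7 counts in any library, and 0 of the 8 passed the filter. FDX2, which encodes a ferredoxin of the mitochondria needed for iron-sulfur clusters, was also at 0 in all 6 libraries. Exons of other annotated genes cover 0% of the exonic bases of SLC40A1 on either strand. Whether the 0 of either gene means that it is silent was not tested.

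Both iron regulatory proteins lay slightly higher in the sgCOX4I1 libraries, without passing the test. IREB2 (chr15:78437431-78501453, plus strand) was 87.2, 85.4 and 83.0 CPM in sgCtrl #1, #2 and #3, against 98.7, 93.7 and 99.5 CPM in sgCOX4I1 #1, #2 and #3. ACO1 (chr9:32384603-32454769, plus strand), which is a cytosolic aconitase when it holds an iron-sulfur cluster, was 17.5, 13.5 and 16.5 CPM in sgCtrl #1, #2 and #3, against 18.0, 18.4 and 19.2 CPM in sgCOX4I1 #1, #2 and #3. The IREB2 groups were apart by more than the range within either group, while for ACO1 the gap was only 0.404 CPM. The log2 fold changes were 0.19 for IREB2 (SE 0.071, adjusted p 0.179) and 0.23 for ACO1 (SE 0.12, adjusted p 0.351) in edgeR's quasi-likelihood test. FBXL5, the ubiquitin ligase subunit that marks IREB2 for degradation when iron is plentiful, was 29.4 ± 0.104 CPM in sgCtrl and 34.0 ± 3.61 CPM in sgCOX4I1 (SD, n = 3), with a log2 fold change of 0.21 and an adjusted p of 0.281.

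Levels can be compared between genes only per length. Per kilobase of the canonical transcript, the sgCtrl means ran from FTL at 2290 CPM per kilobase through FTH1 at 663, PCBP1 at 212, TFRC at 61.4, NCOA4 at 42.2, IREB2 at 13.5, STEAP3 at 8.22, SLC11A2 at 5.80 and ACO1 at 2.13 to SLC40A1 at 0. The order was the same in sgCOX4I1, where FTL stood at 3164, FTH1 at 1118 and TFRC at 61.8 CPM per kilobase. The libraries of neighbours in this order did not overlap in either group. The place of TFRC depended on the length used, since per kilobase of all annotated exonic bases it fell below NCOA4, at 17.7 against 36.7 CPM per kilobase in sgCtrl. Exons on the opposite strand cover 63.2% of the exonic bases of FTH1 and 73.2% of those of PCBP1, against 0% for FTL. The strand setting used in counting is not given, and whether this sharing changed the order was not tested.

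Around these 10 genes stood 66 further genes of iron handling, listed by role, of which 48 were tested. Of these, 2 were called higher and 0 lower, beside 1.06% and 1.02% of all genes tested. The median log2 fold change of the 48 was 0.022. In the list of uptake and endosomal release, 1 of 12 tested genes was called, SLC39A14 (ZIP14), a transporter of iron not bound to transferrin as well as of zinc and manganese. SLC39A14 was 58.5, 47.8 and 46.7 CPM in sgCtrl #1, #2 and #3, against 65.9, 67.4 and 66.2 CPM in sgCOX4I1 #1, #2 and #3. It rose by a log2 fold change of 0.38 (SE 0.091) with an adjusted p of 0.0455 in edgeR's quasi-likelihood test, and the sgCOX4I1 libraries hardly differed from each other. TFR2, the second transferrin receptor, averaged 8.78 CPM in sgCtrl and 8.76 CPM in sgCOX4I1.

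In the mitochondria, 1 of 22 tested genes of iron import and iron-sulfur cluster assembly was called. This was ABCB10, a transporter of the inner mitochondrial membrane known from heme synthesis. ABCB10 was 108, 106 and 93.5 CPM in sgCtrl #1, #2 and #3, against 140, 118 and 138 CPM in sgCOX4I1 #1, #2 and #3. It rose by a log2 fold change of 0.36 (SE 0.087) with an adjusted p of 0.0455 in edgeR's quasi-likelihood test. The calls of SLC39A14 and ABCB10 were close to the threshold. Both were lost when sgCtrl #2, sgCtrl #3 or any single sgCOX4I1 library was left out, with adjusted p of 0.0624 to 0.275 and log2 fold changes of 0.30 to 0.44. The median over the mitochondrial list was 0.072.

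In the storage and turnover list FTH1 was the single call among 7 tested genes, and the median log2 fold change was 0.10. Of 10 tested genes of cytosolic iron-sulfur cluster assembly 0 were called in edgeR, 0 had an unadjusted p under 0.05, and the median was -0.013. Those with the smallest p in that list were NDOR1, an electron donor of the pathway, at a log2 fold change of -0.14 (adjusted p 0.516), and CIAPIN1, its partner, at 0.10 (adjusted p 0.562). Among other mRNAs with an iron-responsive element, 0 of 3 tested were called, 2 with an unadjusted p under 0.05. Over all 11861 genes tested, 2054 had an unadjusted p under 0.05 in edgeR's quasi-likelihood test. EPAS1 (HIF-2α) went from 32.2 ± 0.781 to 38.4 ± 4.27 CPM (SD, n = 3), a log2 fold change of 0.25 with an adjusted p of 0.192.

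**Figure D3:**
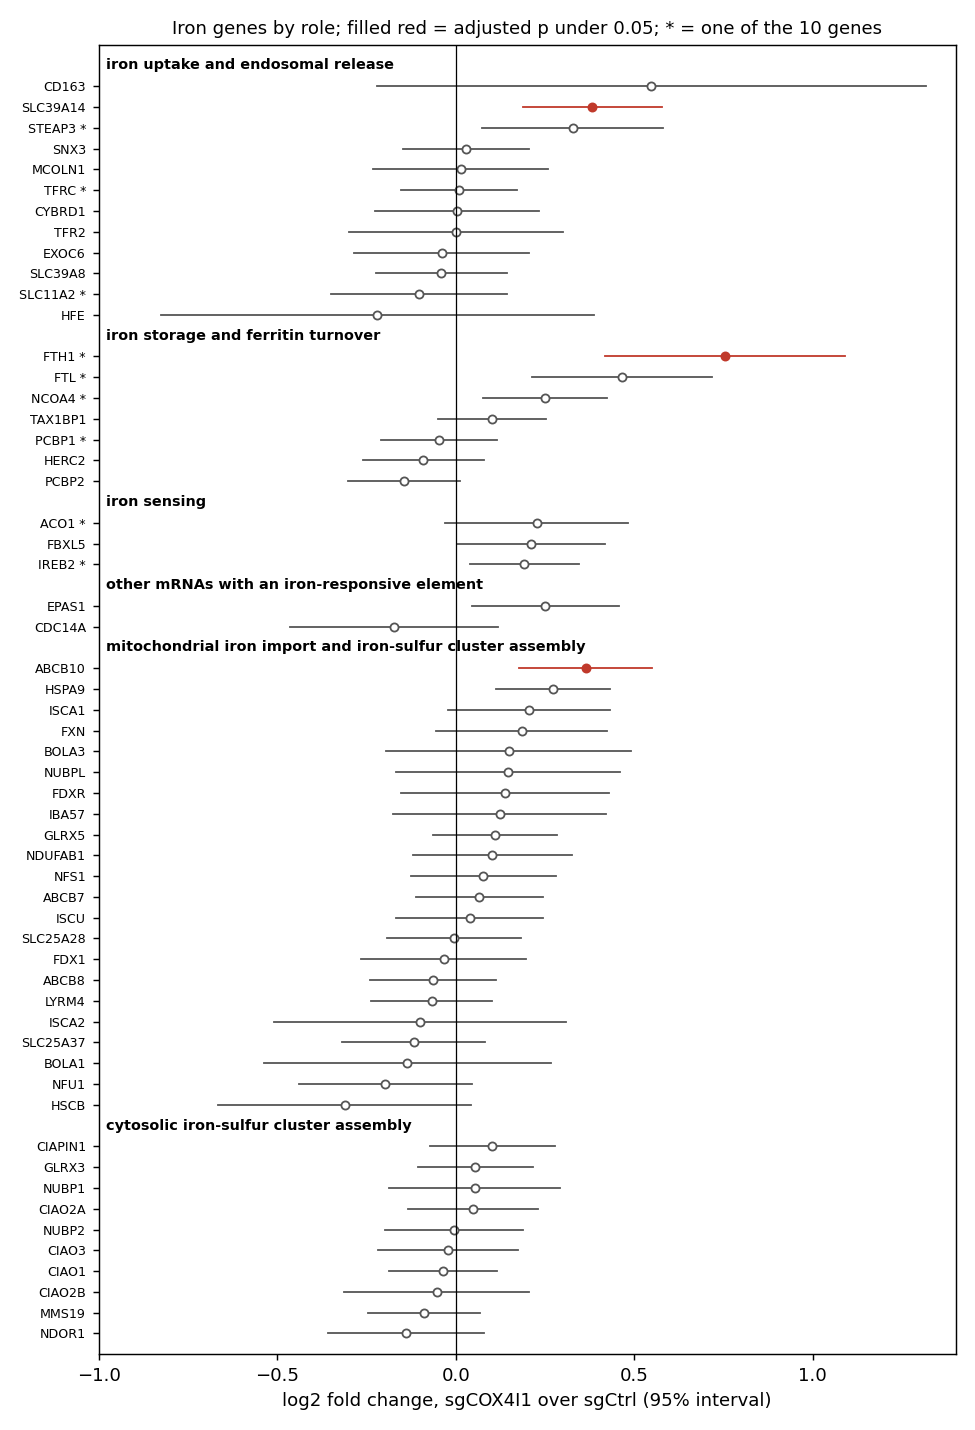
Log2 fold change of sgCOX4I1 over sgCtrl with its 95% interval for the tested genes of the iron lists but 1, grouped by role, with genes at an adjusted p under 0.05 in filled red and an asterisk on the genes of storage, uptake and sensing described one by one. The 3 filled points, FTH1, SLC39A14 and ABCB10, all lie above 0, and the cytosolic iron-sulfur genes are spread closely around 0.

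Some of these counts share sequence with other genes. BEST1 lies on the strand opposite to FTH1, and the exons of all genes annotated on that strand cover 63.2% of the exonic bases of FTH1. BEST1 was 12.5, 19.6 and 25.2 CPM in sgCtrl #1, #2 and #3, against 17.3, 36.3 and 28.7 CPM in sgCOX4I1 #1, #2 and #3, and its counts were 1.67% to 2.73% of those of FTH1 in the same library. The log2 fold change of BEST1 was 0.51, of the same sign as that of FTH1, with an adjusted p of 0.301 in edgeR's quasi-likelihood test. Whether its counts are reads of FTH1 was not tested. GENCODE names 25 pseudogenes after FTH1, 16 after FTL and 4 after NCOA4, so reads that match more than 1 copy may be missing from these genes. The exons of genes annotated on the strand opposite to PCBP1 cover 73.2% of the exonic bases of PCBP1.

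Markers of other cell types were read in the same libraries as FTH1 and FTL. The summed level of the 10 myeloid markers was 2200 to 3161 CPM in sgCtrl and 2882 to 3980 CPM in sgCOX4I1, with 1 of 10 called, and of 7 markers of iron-recycling macrophages, among them CD163 and MARCO, 7.08 to 14.4 and 10.02 to 19.1 CPM, with 0 called and VCAM1 at 0. The 8 lymphoid markers summed to 55.6 to 57.1 CPM in sgCtrl and 61.0 to 66.1 CPM in sgCOX4I1, nearly all of it NKG7, with CD3D at 0 and 0 called. The 10 erythroid markers summed to at most 0.246 CPM and the 7 of fibroblasts or epithelium to at most 0.980 CPM. Their part in the higher FTH1 and FTL was not tested, and fewer cells of a type and less RNA per cell cannot be told apart in bulk RNA.

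The ferritin fold changes kept their direction under all 13 alternative settings, and the calls did not. Since the groups did not overlap for FTH1 or FTL, leaving out a library could hardly have reversed that direction. FTH1 passed the threshold in 10 of the 13 and FTL in 6, with log2 fold changes of 0.53 to 0.91 and 0.33 to 0.57. The lowest value of each came from leaving out sgCOX4I1 #2. TFRC passed in 0 of the 13, between -0.033 and 0.055.

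**Figure D4:**
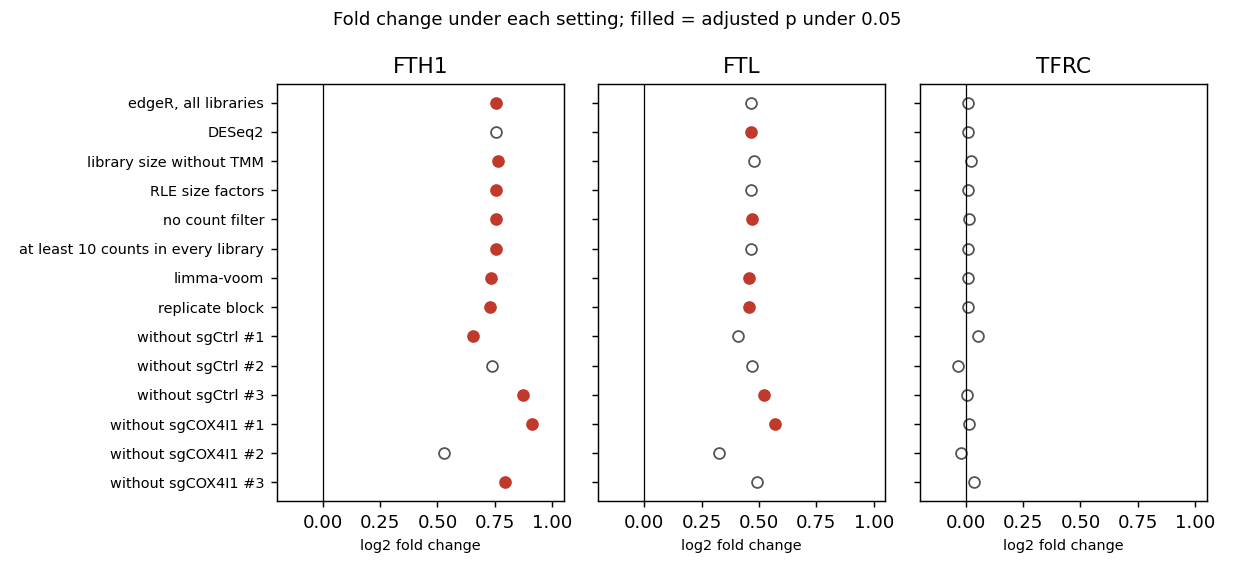
Log2 fold change of FTH1, FTL and TFRC in the fit to all libraries and under 13 alternatives, with filled points where the adjusted p was under 0.05. FTH1 lies between 0.53 and 0.91 and TFRC between -0.033 and 0.055 under the alternatives, and FTH1 is unfilled in DESeq2 and without #2 of either group.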

How the data were processed

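RNA of 6 Molm13-Cas9 cultures was sequenced from a directional mRNA library. The authors deposited whole-number counts for 19845 gene symbols in 1 table, not normalized, and all 6 sample columns were used. Columns were matched to samples by letter (C or K) and number. The submitters' processing notes name bcl2fastq 2.20.0.422, STAR 2.6.0a and GRCh38, and the column names point to marked duplicates. The methods name Trimmomatic, Bowtie2 and RSEM instead. The strand setting and annotation used in counting are not given in the sources used here.

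From the counts, TMM factors (0.987 to 1.01) and the quasi-likelihood test of edgeR 4.0.16 (R 4.3.3, group only, all 6 libraries) were computed for 11861 genes kept by filterByExpr, with Benjamini-Hochberg adjustment over all of them and a threshold of 0.05. Correlations used log2 CPM with a prior count of 2, over genes averaging 1 CPM or more. Ratios were compared by two-sided exact permutation of the mean log2 ratio, and the fold given for a ratio comes from that mean. The alternatives were DESeq2 1.42.0, other scalings and filters, a block on the replicate number, limma-voom (limma 3.58.1), and each library left out. The edgeR, DESeq2 and limma steps were tested on simulated data. Total counts of 17241014 to 30861943 set the floor of 3 counts at 0.0972 to 0.174 CPM, and replicates differed by more than sampling noise (chi-square per degree of freedom 10.6 to 26.6).

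Named genes were the 10 genes of the rule, in each list the genes with an adjusted p under 0.05 or else those with the smallest p (at most 2), and the 3 genes most correlated with FTH1 and with TFRC. PCBP2, TFR2, BEST1, FDX2 and HSPA9 were added after their values were seen. These 10 genes and the lists were chosen with earlier results of these data known. Positions came from GENCODE 44 on GRCh38, in which 18441 symbols were matched, and CIAO2A, CIAO2B, CIAO3 and HJV were counted under older symbols. Of the genes on these lists, some are not reported here.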

Additional observations from a re-analysis of the deposited data

How the results depend on the processing

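The 9 tested iron genes kept the sign of their log2 fold change under all 13 alternatives, except TFRC, which kept it in 11. Leaving out a library could hardly reverse the sign of a gene whose groups did not overlap. Of the 9 genes, the number called, 1 in edgeR, was 2 without the count filter, 2 in limma-voom and 0 to 2 when 1 library was left out. DESeq2 also called 1, FTL in place of FTH1, which had a log2 fold change of 0.75 there and an adjusted p of 0.0636. The 3 calls over all iron lists became 5 without the count filter, where FTL and HSPA9 joined, and 0 to 4 with 1 library left out. Leaving out 1 library moved FTH1 between 0.53 and 0.91 and TFRC between -0.033 and 0.055 (log2), with FTH1 called in 4 of those 6 fits. The log2 difference of the ratio of FTH1 to TFRC lay between 0.55 and 0.89 with 1 library left out, and that of FTH1 to FTL between 0.20 and 0.34. The cause of these moves was not tested.

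With the replicate number as a block, 5 of the 9 genes (FTH1, FTL, NCOA4, IREB2 and STEAP3) and 9 genes of the iron lists were called, and 1408 of all genes rather than 247. Deviations of log2 CPM from the mean of the group were then compared between sgCtrl and sgCOX4I1 libraries. The deviations of same-numbered libraries correlated at 0.382, -0.024 and 0.294. Those of #1 in 1 group and #3 in the other correlated at -0.324 and -0.384. Deviations from a shared mean are bound to each other, so these correlations are not separate observations. Every correlation with a #2 library lay between -0.101 and 0.13. The sample labels do not name the numbers as pairs, so the main fit used the group only. Whether libraries of the same number share a batch was not tested.

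With 3 libraries a group, the exact test of a ratio could not go below p = 0.1. For SLC11A2, at 20.2 to 26.0 CPM, the 95% interval still reached a log2 fold change of -0.35.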
